A study of Homo sapiens with 12 samples.

Results

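The Krüppel-like factors (KLF) other than KLF1 were followed in K562 cells treated with inhibitors of BCR-ABL1. The 10 genes KLF2, KLF3, KLF4, KLF5, KLF6, KLF7, KLF9, KLF10, KLF11 and KLF13 were taken by name, and every probe set whose platform annotation names one of them was included, which gave 16 probe sets of 22277 on the array. K562 is an established cell line from a chronic myelogenous leukemia, and its growth is driven by the fusion tyrosine kinase BCR-ABL1, which imatinib and nilotinib both inhibit. There were 12 arrays in 3 groups of 4: cells given 0.5 µM imatinib (STI571), cells given 0.05 µM nilotinib (AMN107), and cells given DMSO as the control, all for 24 hours in RPMI with 10% fetal bovine serum and antibiotics. The labels describe these doses as IC50 concentrations. Total RNA was measured on Affymetrix U133 A 2.0 arrays. A value is the deposited signal of a probe set on a linear scale, and differences are given on the scale log2(signal + 16), which understates the change of low signals. The labels do not say that the 4 samples of a group came from separate cultures, so the p-values here cover the spread among the 4 samples, and that spread may be technical. K562 is 1 cell line, and in a bulk RNA sample fewer cells that express a gene and less of its RNA per cell cannot be told apart.

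KLF proteins are zinc finger transcription factors that bind GC-rich and CACCC sequences. Their C-terminal zinc fingers are alike, and the N-terminal parts differ and set the partners. KLF9, KLF10, KLF11 and KLF13 recruit the corepressor SIN3A, KLF3 recruits the corepressor CtBP, and KLF2, KLF4, KLF5, KLF6 and KLF7 act mostly as activators that work with histone acetyltransferases. In red cell precursors, the lineage K562 resembles, KLF1 drives globin and membrane protein genes, and KLF3 is one of its target genes. Several KLF genes respond quickly to growth factors, to TGF-beta or to glucocorticoids.

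A probe set was tested when it named 1 gene and its mean log2 value reached the 40th percentile of the array, which is a signal of 80.6. This left 11696 probe sets, of which 7 belonged to 6 of the KLF genes: KLF3, KLF5, KLF6, KLF9 (with 2 probe sets), KLF10 and KLF11. The other 9 probe sets lay below the filter, among them all those of KLF2, KLF4, KLF7 and KLF13, and their values are given without a test. Against DMSO, imatinib gave 2 of the 7 tested KLF probe sets called higher (limma, Benjamini-Hochberg adjusted p under 0.05), where 20.0% of all tested probe sets were called higher and 35.6% were called in either direction. Nilotinib gave 4 of 7 called higher, where 33.1% of all were called higher and 54.9% in either direction. None of the 7 was called lower with either drug (0 at an unadjusted p under 0.05), where 15.6% of all were called lower with imatinib and 21.8% with nilotinib. KLF5, one of the 7, had a DMSO mean of 80.57, just under the filter signal of 80.63, so it was tested only because of its drug arrays. The median difference of the 7 was 0.28 with imatinib, which is the value of KLF5, and 0.65 with nilotinib. Over all tested probe sets the medians were 0.09 and 0.15. These medians depended on the scaling between arrays. Quantile normalization gave 0.04 and 0.24, beside 0.01 and -0.01 over all tested probe sets. Median centring gave 0.05 and 0.13, beside -0.13 and -0.37, so it lowered the medians of all probe sets as well. Cyclic loess gave 0.01 and 0.21, beside -0.00 and -0.01. Both comparisons use the same 4 DMSO arrays, so their values stand side by side and are not independent.

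**Figure D1:**
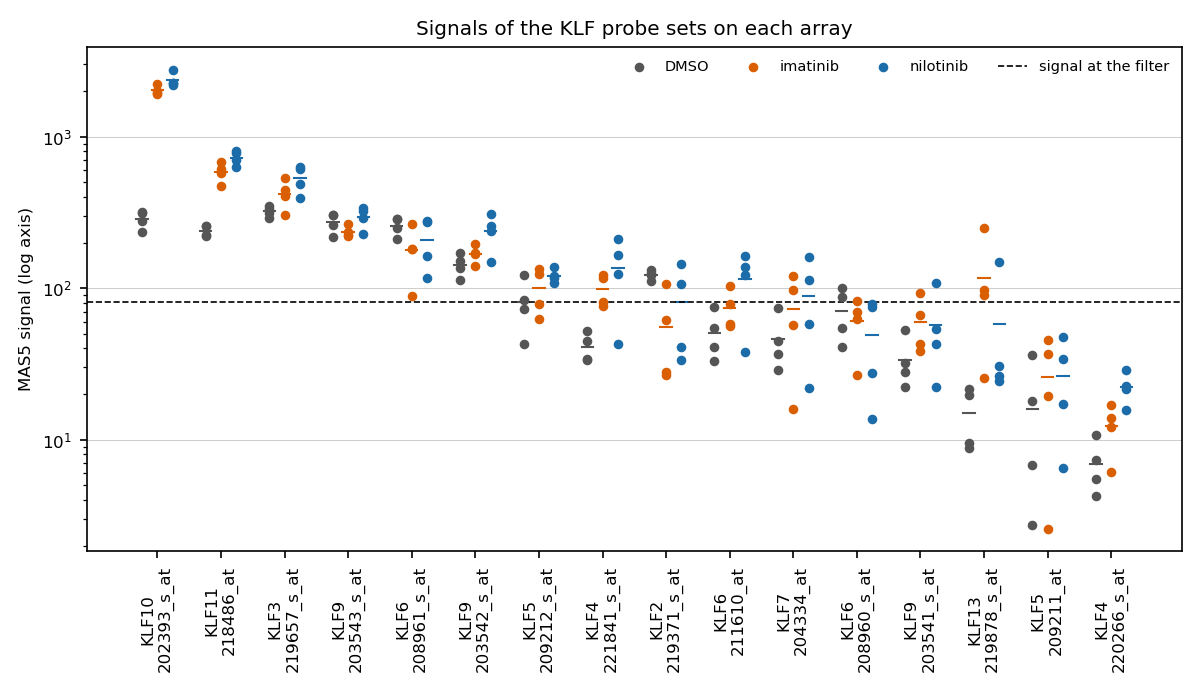
Signal of each of the 16 KLF probe sets on each array (log axis), by group, with bars at the group means and a dashed line at the signal of the filter, 80.6. KLF10 and KLF11 lie apart from DMSO in both drug groups, and the 9 probe sets below the filter spread widely within groups.

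The median signal of an array was 117 to 121 in the DMSO group, 135 to 155 under imatinib and 166 to 194 under nilotinib, although the arrays had been scaled to the same trimmed mean. Most low probe sets also lay higher on the drug arrays: of 7368 probe sets below the filter, 68.5% were higher in mean log2 value with imatinib and 84.9% with nilotinib. The share of higher calls moved with the scaling. It was 56.2% of all calls with imatinib and 60.4% with nilotinib, and 26.1% and 17.0% when each array was centred on its median, which moved the median difference of all probe sets to -0.13 and -0.37. With quantile normalization the nilotinib share was 47.0% and with cyclic loess 47.5%, at medians of -0.01 and -0.01. The actin control of RNA integrity, a 3' to 5' signal ratio, was 2.66 to 3.34 on the DMSO arrays. It ran from 2.04 to 5.24 under imatinib and from 1.82 to 5.49 under nilotinib, so both drug groups reached above and below the DMSO range. The highest were imatinib 5 and 6 and nilotinib 1 and 2. Markers of the erythroid line were present. Of the 6 tested, GATA1 was not called with imatinib (0.07; limma, adjusted p = 0.750) or nilotinib (0.22, adjusted p = 0.242). The other 5, HBE1, TFRC, LMO2, KLF1 and TAL1, each rose with both drugs, except that TFRC depended on the scaling. Its imatinib call was lost with quantile normalization (0.13, adjusted p = 0.0827) and median centring (-0.01), and median centring turned its nilotinib call to lower (-0.20, adjusted p = 0.0273, against 3.22e-06 to 0.00529 with the other scalings). The summed signal of the 6 ran from 31770 to 35179 in the DMSO group, against 49839 to 55844 under imatinib and 58339 to 62645 under nilotinib, and whether this shift takes part in the KLF differences was not tested. Lists for other cell types were summed in the same way. With DMSO the sums were 148 to 490 for 5 megakaryocyte genes, 2900.3 to 3191 for 5 granulocyte and monocyte genes, 497 to 614 for 4 lymphocyte genes, 308 to 566 for 5 fibroblast genes and 149 to 214 for 4 endothelial genes. In the same order they were 251 to 475, 2059 to 2748, 253 to 532, 324 to 622 and 166 to 326 under imatinib. With nilotinib these sums were 381 to 734, 1905 to 2492, 449.7 to 879.7, 700.1 to 773 and 237 to 446 and no marker gene was at 0. Of the 5 granulocyte and monocyte genes, LYZ alone passed the filter, so their sum does not show that the 5 were present or fell together. Of the 10 genes of these lists that were tested, LYZ and CD3D were called lower with imatinib, and with nilotinib LYZ was called lower and ITGB3, CD2, DCN and PECAM1 higher. The calls of CD2 (0.46 to 0.55), DCN (0.29 to 0.37) and PECAM1 (0.25 to 0.26) were lost with quantile normalization, median centring and cyclic loess, and under those settings CD3D was called lower with nilotinib as well. The part of these markers in the KLF differences was not tested.

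KLF10, first described as TGF-beta inducible early gene 1, is a SIN3A-recruiting repressor that restrains cell proliferation. It rose with both drugs and had the largest difference from DMSO of the 7 tested KLF probe sets. Its probe set 202393_s_at had signals of 316, 278, 311 and 233 on DMSO replicates 9 to 12, of 2220, 1995, 1923 and 1941 on imatinib replicates 5 to 8, and of 2754, 2188, 2268 and 2247 on nilotinib replicates 1 to 4. Every drug array lay far above every DMSO array, the lowest drug signal being 1923 and the highest DMSO signal 316. The means were 285 ± 38.5 (SD, n = 4) with DMSO, 2020 ± 137 with imatinib and 2364 ± 262 with nilotinib. The log2 difference was 2.77 ± 0.10 (SE; limma, adjusted p = 4.46e-13) with imatinib, and 22 of the 11696 probe sets had a larger one. With nilotinib it was 2.99 ± 0.10 (limma, adjusted p = 1.05e-13), and 29 probe sets had a larger one. KLF10 was called in all 25 alternatives tried for each drug, with differences between 2.47 and 3.06. At both levels of the actin ratio the values were close to these: against DMSO, the arrays of high ratio gave 2.83 and 3.05 for imatinib and nilotinib, and those of lower ratio gave 2.71 and 2.93.

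KLF11, the second TGF-beta inducible early gene, also recruits SIN3A and was described as an activator of fetal globin genes. Probe set 218486_at rose with both drugs, by less than KLF10. Its signals were 259, 225, 255 and 220 on DMSO replicates 9 to 12, then 613, 473, 677 and 578 on imatinib replicates 5 to 8 and 698, 632, 775 and 804 on nilotinib replicates 1 to 4. The DMSO arrays lay below all drug arrays, while the ranges of imatinib and nilotinib overlapped. The mean went from 240 ± 20.3 (SD, n = 4) to 585 ± 85.1 with imatinib, a log2 difference of 1.23 ± 0.13 (SE; limma, adjusted p = 6.28e-07). With nilotinib the mean was 727 ± 77.5 and the difference 1.54 ± 0.13 (limma, adjusted p = 1.87e-08). KLF11 was called in all 25 alternatives for each drug, with differences between 1.00 and 1.66.

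Windows of 250 bases upstream of annotated starts were available from RefSeq (GRCh38.p14) for 8 of the 10 genes, 13 windows in all, KLF3 and KLF10 not being among them. Motif letters were searched on both strands, and matches describe the window only. The cAMP response element TGACGTCA was found in 1 of the 13 windows, that of a KLF11 start, against 1.6% of 35116 windows searched. The E box CACGTG, bound by MYC and its partners, was found in 4 of 13, against 6.3% of all windows. The stretches of the KLF11 windows that hold these letters, which are in capitals, are shown because KLF11 rose with both drugs. They lie on the plus strand of chromosome 2 at chr2:10043635-10043664 (E box) and chr2:10044034-10044063 (cAMP response element), before different annotated starts.
KLF11 E box: ccgcccgcagccCACGTGcggccgctgctg
KLF11 cAMP response element: atttccagccaTGACGTCAccccggtcctg

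KLF9, which is induced by glucocorticoids and thyroid hormone and is also a SIN3A-recruiting repressor, had 3 probe sets that did not behave alike. Probe set 203543_s_at, with the highest mean of the 3, had signals of 305, 303, 219 and 261 with DMSO, 266, 221, 223 and 234 with imatinib and 322, 288, 339 and 227 with nilotinib. The 3 groups overlapped, and neither drug gave a call: the log2 differences were -0.18 ± 0.17 (SE; limma, adjusted p = 0.427) and 0.10 ± 0.17 (adjusted p = 0.622), the latter -0.42 with median centring. Probe set 203542_s_at had signals of 113, 172, 136 and 150 with DMSO, 195, 169, 168 and 140 with imatinib and 257, 310, 149 and 237 with nilotinib. In the nilotinib group 3 arrays lay above every DMSO array and replicate 3 lay within the DMSO range. The probe set was called higher with nilotinib, at 0.65 ± 0.23 (limma, adjusted p = 0.0215), and not with imatinib, at 0.22 ± 0.23 (adjusted p = 0.487). The nilotinib call was kept in 16 of 23 alternatives, with adjusted p between 0.00345 and 0.641. It was lost with quantile normalization (0.24), median centring (0.13) and cyclic loess (0.21), without the 4 arrays of high actin ratio (0.38), and without nilotinib replicate 1 (0.60), nilotinib replicate 2 (0.52) or DMSO replicate 9 (0.56). Probe set 203541_s_at lay below the filter, with signals of 22 to 53, 39 to 93 and 22 to 108 with DMSO, imatinib and nilotinib.

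KLF13, a repressor that also activates CCL5 in T cells, was measured by probe set 219878_s_at, below the filter. Its signals were 9.53, 21.6, 19.8 and 8.86 with DMSO, 89.5, 25.7, 96.9 and 251 with imatinib, and 24.4, 26.5, 149 and 30.5 with nilotinib. Every drug array lay above every DMSO array, but the drug arrays differed from one another by several fold and most nilotinib arrays lay just above DMSO. The log2 differences were 1.82 with imatinib and 0.99 with nilotinib. When the filter was dropped, limma gave adjusted p = 0.0185 and 0.138 for them, the only setting in which this probe set entered the fit.

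KLF3, the CtBP-recruiting repressor and erythroid target of KLF1, rose with nilotinib. Probe set 219657_s_at had signals of 346, 290, 312 and 334 with DMSO, of 403, 443, 532 and 303 with imatinib, and of 631, 395, 489 and 613 with nilotinib. All nilotinib arrays lay above all DMSO arrays, and imatinib replicate 8 lay within the DMSO range while the other imatinib arrays lay above it. The nilotinib mean was 532 ± 111 (SD, n = 4) against 321 ± 24.7, a log2 difference of 0.68 ± 0.17 (SE; limma, adjusted p = 0.00265). The imatinib mean was 420 ± 94.97, and its difference of 0.35 ± 0.17 was not called (adjusted p = 0.125), although without imatinib replicate 8 it was 0.49 and was called (adjusted p = 0.0311, the range over 25 alternatives being 0.0311 to 0.639). The nilotinib call was kept in 24 of 25 alternatives and lost with median centring, at 0.16 (adjusted p = 0.464, from a range of 6.23e-04 to 0.464).

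**Figure D2:**
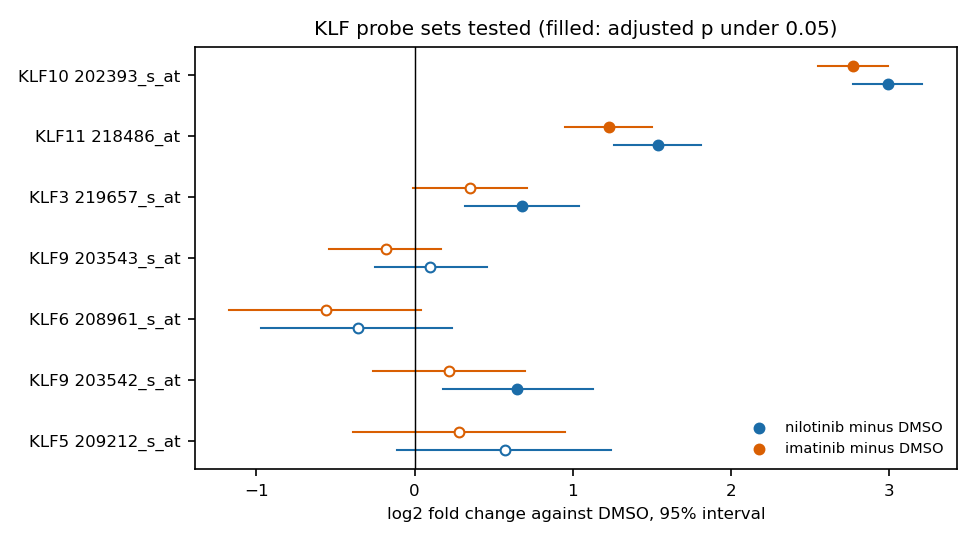
Log2 difference from DMSO of the 7 tested KLF probe sets, with 95% intervals, for imatinib and nilotinib (4 arrays a group), filled symbols marking adjusted p under 0.05 in limma. KLF10 and KLF11 are filled for both drugs, and KLF3 and KLF9 203542_s_at for nilotinib, while the intervals of KLF5, KLF6 and KLF9 203543_s_at include 0.

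KLF6, an activator induced early after growth factor stimulation and described as a tumor suppressor, gave no call. Probe set 208961_s_at had signals of 248, 211, 286 and 285 with DMSO, 264, 89, 181 and 181 with imatinib and 162, 117, 278 and 273 with nilotinib. Of the 4 arrays of high actin ratio, imatinib replicate 6 and nilotinib replicates 1 and 2 were the lowest of the 12, and imatinib replicate 5, with 264, lay within the DMSO range. The log2 differences were -0.56 ± 0.29 (SE; limma, adjusted p = 0.141) with imatinib and -0.36 ± 0.29 (adjusted p = 0.296) with nilotinib. Within the nilotinib arrays of high actin ratio the difference from DMSO was -0.82, and within those of lower ratio it was 0.10. For imatinib the corresponding values were -0.66 and -0.47. The probe set was called lower with median centring (-0.79 and -0.88 for imatinib and nilotinib) and with cyclic loess (-0.75 and -0.76), with adjusted p over the alternatives from 0.0359 to 0.425 and from 0.0121 to 0.691. The other KLF6 probe sets lay below the filter and went opposite ways with nilotinib, with log2 differences of 0.88 for 211610_at and -0.53 for 208960_s_at.

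KLF5, which promotes proliferation in epithelia and is degraded through the ubiquitin ligases WWP1 and FBXW7, had signals of 73, 123, 43 and 83 with DMSO, 134, 63, 124 and 79 with imatinib and 139, 121, 108 and 117 with nilotinib on probe set 209212_s_at. The groups overlapped, the DMSO arrays alone spanning 43 to 123. The log2 differences of 0.28 ± 0.32 (SE; limma, adjusted p = 0.537) and 0.57 ± 0.32 (adjusted p = 0.141) did not pass the test, and the latter was -0.02 with quantile normalization. KLF5 209211_at lay below the filter, with differences of 0.37 and 0.41. KLF7, an activator known from neuron development, was also below it on its probe set 204334_at. KLF7 signals lay between 28.7 and 74.1 in the DMSO group, 15.9 and 120 under imatinib and 21.9 and 162 under nilotinib, with the groups overlapping.

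KLF2 and KLF4 are induced by the ERK5 kinase through MEF2 factors and by FOXO factors; both favor quiescence, KLF2 in lymphocytes and endothelium and KLF4 in several epithelia and in blood cells. Their signals differed from DMSO in opposite directions, and their mean log2 values over all arrays lay below the filter. KLF2 219371_s_at had signals of 132.6, 125, 122 and 111 with DMSO, 28.1, 107, 61.3 and 26.6 with imatinib and 40.7, 145, 107 and 33.6 with nilotinib. All imatinib arrays lay below all DMSO arrays, while nilotinib replicate 2 lay above the DMSO arrays and the other 3 nilotinib arrays below them. The log2 differences were -1.09 with imatinib and -0.68 with nilotinib. All DMSO signals of this probe set lay above the filter signal of 80.6, so it went untested only because of its drug arrays. In the 6 alternatives in which this KLF2 probe set entered the fit, limma's adjusted p ran from 0.0330 to 0.147 for imatinib, with 2 calls, and from 0.119 to 0.436 for nilotinib, with none. Apart from the run without a filter, entry depended on this probe set's own mean over the arrays used, so these counts do not measure robustness.

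KLF4 221841_s_at had signals of 34.0, 44.6, 33.3 and 52.0 with DMSO, 75.7, 116, 121 and 81.4 with imatinib and 167, 42.9, 123 and 211 with nilotinib. All imatinib arrays lay above all DMSO arrays, and nilotinib replicate 2 lay within the DMSO range while the other nilotinib arrays lay above it. The log2 differences were 1.00 with imatinib and 1.27 with nilotinib. In the 6 alternatives that admitted this KLF4 probe set, it was called higher with nilotinib in 6 (limma, adjusted p 3.56e-04 to 0.0282) and with imatinib in 1 (0.0132 to 0.114). As for KLF2, entry depended on the probe set's own mean, drug arrays included, except in the run without a filter. These counts therefore do not measure robustness either. The second KLF4 probe set, 220266_s_at, was very dim, with signals of 4.27 to 10.7, 6.14 to 16.9 and 15.8 to 28.7 in DMSO, imatinib and nilotinib and log2 differences of 0.30 and 0.73. Over the 9 probe sets below the filter, 7 had a positive difference with each drug, beside the 68.5% and 84.9% given above for all such probe sets.

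The upstream windows of KLF4 (minus strand, chr9:107489770-107490019) and KLF2 (plus strand, chr19:16324576-16324825) are printed because both genes share the ERK5 and MEF2 route and their signals went opposite ways. Capitals mark the GC box GGGCGG or its complement, the CACCC box CACCC and the letters CTANNNNTAG of a MEF2 site, all searched on both strands. Each window holds 4 GC boxes and no CACCC box, and the KLF2 window alone of the pair holds the MEF2 letters, which overlap no other marked letters.
KLF4 upstream window: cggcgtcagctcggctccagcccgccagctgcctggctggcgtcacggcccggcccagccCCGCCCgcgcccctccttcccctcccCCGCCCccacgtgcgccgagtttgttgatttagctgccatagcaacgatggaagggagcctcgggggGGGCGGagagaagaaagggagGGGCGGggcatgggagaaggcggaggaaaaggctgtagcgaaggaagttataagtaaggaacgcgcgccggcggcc
KLF2 upstream window: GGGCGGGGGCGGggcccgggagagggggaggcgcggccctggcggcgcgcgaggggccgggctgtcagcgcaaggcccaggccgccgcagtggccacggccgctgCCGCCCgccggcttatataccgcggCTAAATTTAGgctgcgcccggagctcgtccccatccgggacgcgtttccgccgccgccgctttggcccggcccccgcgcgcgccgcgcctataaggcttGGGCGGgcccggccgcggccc
Over the 13 KLF windows the GC box was found in 8, against 42.6% of all windows, and the CACCC box in 6, against 54.7%. The MEF2 letters were found in 2 (KLF2 and KLF11), against 2.4%. The FOXO letters GTAAACA (3.0% of all windows) and the GATA letters AGATAA (9.2%) were found in none of the 13.

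Groups that did not overlap with DMSO were seen for 2 of the 7 tested KLF probe sets with imatinib and 3 of 7 with nilotinib, where 36.6% and 48.0% of all tested probe sets did not overlap. Below the filter, imatinib gave 2 of 9 KLF probe sets wholly above DMSO (KLF4 221841_s_at and KLF13) and KLF2 wholly below, against 7.40% and 1.64% of such probe sets. Nilotinib gave 2 of 9 wholly above (KLF4 220266_s_at and KLF13), against 22.5%.

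**Figure D3:**
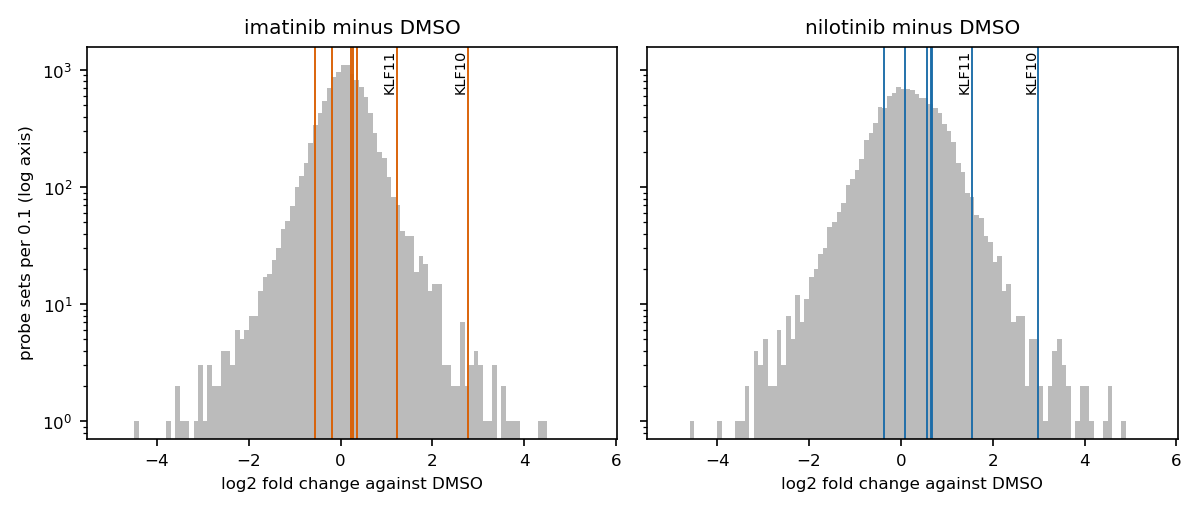
Histograms of the log2 difference from DMSO over all 11696 tested probe sets, for imatinib and for nilotinib, with vertical lines at the 7 KLF probe sets. KLF10, at 2.77 and 2.99, and KLF11, at 1.23 and 1.54, stand to the right of the bulk, whose medians are 0.09 and 0.15.

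The drugs were given at different doses, so a difference between them is one between these treatments. None of the 7 tested KLF probe sets was called between nilotinib and imatinib with limma (smallest adjusted p = 0.125), where 11.4% of all probe sets were called, 4.77% higher and 6.66% lower with nilotinib. At an unadjusted p under 0.05, 2 were higher with nilotinib, KLF10 and KLF11. KLF11 was 0.31 higher (95% interval 0.04 to 0.59, adjusted p = 0.125) and KLF10 0.22 higher (0.00 to 0.44, adjusted p = 0.168). KLF3 was 0.33 higher, with an interval from -0.03 to 0.69 (adjusted p = 0.206). All 7 estimates were positive, and the median was 0.29 against 0.06 over all probe sets, or -0.01 against -0.24 with median centring. Their signs depended on the scaling: with median centring the differences of KLF5, KLF6, KLF9 203543_s_at and KLF10 were -0.01, -0.09, -0.01 and -0.08. All probe sets had calls that were 41.7% higher in this comparison, and 2.68% higher with median centring.

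The other KLF and SP genes gave 1 call of 4 tested genes with imatinib and 2 with nilotinib, all higher, where 21.5% and 34.3% of 8021 genes were called higher. KLF1, the erythroid activator, rose by 0.99 ± 0.07 (SE) with imatinib and 1.08 ± 0.07 with nilotinib on the log2 scale. SP2 rose with nilotinib by 0.44 ± 0.11, a value that was -0.08 and not called with median centring. With median centring the list gave 1 higher and 1 lower with nilotinib, the lower one being another gene than SP2. Quantile normalization and cyclic loess each gave 3 higher and 0 lower with nilotinib.

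Partners of the KLF proteins moved in both directions. Of 15 tested corepressors and coactivators, 3 rose and 2 fell with imatinib, and 6 rose and 5 fell with nilotinib, where 16.9% and 23.2% of all genes were called lower. The median log2 differences were 0.10 and -0.09, and with median centring 2 rose and 6 fell with imatinib and 2 rose and 8 fell with nilotinib. KAT2B, the acetyltransferase PCAF, rose by 1.50 ± 0.11 and 2.02 ± 0.11, and CREBBP, the acetyltransferase CBP, rose by 0.54 ± 0.09 and 0.83 ± 0.09. RCOR1, the CoREST scaffold, had differences of -0.88 ± 0.09 and -0.85 ± 0.09, and SAP30 of the SIN3 complex, on 1 of its 3 probe sets, had -0.42 ± 0.13 and -0.74 ± 0.13, all 4 called lower. The imatinib call of SAP30 was lost without DMSO replicate 9 (-0.38), without DMSO replicate 12 (-0.31) and when the 4 arrays of high actin ratio were left out (-0.33).

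The genes upstream of KLF2 and KLF4 gave 2 higher and 1 lower of 10 tested with imatinib, and 4 higher and 2 lower with nilotinib. Over all genes the shares were 21.5% higher and 16.9% lower with imatinib, and 34.3% and 23.2% with nilotinib. The medians were 0.19 and -0.03, and under the 3 other scalings they were -0.03 to 0.05 and -0.55 to -0.41. HDAC5, which holds MEF2 factors inactive, rose by 1.93 ± 0.28 and 1.88 ± 0.28, and FOXO3 rose by 0.77 ± 0.10 and 1.24 ± 0.10. The DMSO mean of HDAC5 was 61.6, below the filter signal of 80.6, so HDAC5 passed the filter only through its drug arrays. MEF2C was called lower with both drugs on 1 of its 2 tested probe sets, that of its highest mean, at -0.57 ± 0.11 and -1.07 ± 0.11. MAP3K3, a kinase above ERK5, rose with nilotinib by 0.67 ± 0.21, a call that quantile normalization (0.40), median centring (0.15), cyclic loess (0.37) and leaving out the 4 arrays of high actin ratio (0.50) ended. Of 5 ubiquitin ligases that act on KLF proteins, SMURF2 fell with both drugs, at -0.55 ± 0.12 and -0.85 ± 0.12. WWP1 was called higher with nilotinib on 1 of its 2 tested probe sets, at 0.51 ± 0.17, which was -0.02 with median centring. That call was also lost with quantile normalization (0.36), with cyclic loess (0.38), without nilotinib replicate 2 (0.40) and when the 4 arrays of high actin ratio were left out (0.29). The medians of the 5 were -0.13 and -0.16, beside all-gene shares of 16.9% and 23.2% lower. With median centring they were -0.35 and -0.68, with 2 called lower under imatinib and 4 under nilotinib and 0 higher under either in limma.

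TGF-beta and SMAD genes, the pathway from which KLF10 and KLF11 have their older names, gave 3 higher and 3 lower of 11 tested with imatinib and 3 higher and 2 lower with nilotinib, with medians of 0.03 and 0.06, beside all-gene shares of 21.5% higher and 16.9% lower, and 34.3% and 23.2%. The inhibitory SMAD6 rose by 0.60 ± 0.13 and 1.17 ± 0.13. The coreceptor TGFBR3 was called lower at -1.15 ± 0.17 and -0.80 ± 0.17, and the corepressor TGIF1 at -0.65 ± 0.12 and -0.84 ± 0.12. SKIL, a SMAD repressor, rose with imatinib by 0.68 ± 0.23 on 1 of its 2 tested probe sets, a call kept in 16 of 24 alternatives. The SKIL call was lost under all 3 other scalings (0.46 to 0.50) and without imatinib replicates 5 (0.66), 6 (0.63) or 7 (0.63), DMSO replicate 9 (0.64) or the 4 arrays of high actin ratio (0.57). With median centring the list gave 1 higher and 4 lower with imatinib and 1 higher and 6 lower with nilotinib.

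Among 14 tested immediate early genes of growth factor signalling, 2 rose and 6 fell with imatinib, and 3 rose and 6 fell with nilotinib, with medians of -0.26 and -0.27. Of all genes, 16.9% and 23.2% were called lower and 21.5% and 34.3% higher. Most calls in this group were thus in the direction opposite to those of KLF10 and KLF11. EGR1, a direct readout of ERK signalling, had log2 differences of -3.78 ± 0.14 and -3.36 ± 0.14 and MYC of -1.25 ± 0.10 and -1.91 ± 0.10. ATF3 (-1.68 ± 0.19 and -0.95 ± 0.19) and IER3 (-1.55 ± 0.14 and -1.20 ± 0.14) were called lower as well. The genes called higher, named after their values were seen, were DUSP1 (1.03 ± 0.17 and 1.15 ± 0.17), JUN (0.55 ± 0.11 and 0.90 ± 0.11) and, with nilotinib only, NR4A2 (1.02 ± 0.29). JUN had the call on 1 of its 3 tested probe sets with imatinib and on 2 with nilotinib. Under the 3 other scalings 1 to 2 genes were called higher with imatinib and 2 with nilotinib. Genes induced by glucocorticoids, the hormone class that induces KLF9, were listed together with NR3C1, the gene of the receptor. Of the 4 tested, 2 were called higher with imatinib and 4, NR3C1 among them, with nilotinib. Of all genes, 21.5% and 34.3% were called higher. The medians of the 4 were 0.26 and 0.65. SGK1 rose by 0.89 ± 0.11 and 0.55 ± 0.11, and TSC22D3 (GILZ) by 0.28 ± 0.11 and 0.75 ± 0.11. ZBTB16 rose with nilotinib by 0.81 ± 0.26 and NR3C1, the receptor itself, by 0.37 ± 0.11. With median centring all 4 nilotinib calls were lost, at 0.29 for ZBTB16, 0.22 for TSC22D3, 0.02 for SGK1 and -0.16 for NR3C1. With imatinib 1 of the 4 was called under each of the 3 other scalings. With nilotinib 3 of the 4 were called after quantile normalization and cyclic loess, ZBTB16 being lost at 0.28 and 0.25, and NR3C1 was lost when the 4 arrays of high actin ratio were left out (0.28). The imatinib call of TSC22D3 was kept in 11 of 25 alternatives.

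Reported KLF target genes gave 4 higher and 2 lower of 8 tested with imatinib and 4 higher and 1 lower with nilotinib, where 21.5% and 34.3% of all genes were called higher and 16.9% and 23.2% lower. The medians were 0.46 and 0.76, and under the 3 other scalings 0.23 to 0.26 and 0.24 to 0.35. CDKN1A and LGALS3, named here after their values were seen, were the 2 called lower with imatinib. Their differences were -0.95 ± 0.32 and -0.64 ± 0.20 (limma, adjusted p = 0.0273 and 0.0161). With nilotinib neither was called, at 0.15 ± 0.32 and 0.02 ± 0.20 (adjusted p = 0.710 and 0.928). HBE1, the embryonic globin gene, rose by 0.92 ± 0.09 and 1.24 ± 0.09, and CYP1A1 rose by 2.04 ± 0.35 and 2.30 ± 0.35. ITGB7, an integrin gene of the lymphocyte homing program, rose by 1.84 ± 0.39 and 1.89 ± 0.39. THBD, the endothelial KLF2 target thrombomodulin, rose by 0.89 ± 0.25 and 1.20 ± 0.25. The DMSO means of CYP1A1 (37.1), ITGB7 (77.0) and THBD (74.5) lay below the filter signal of 80.6. These genes were thus tested, and counted among the higher calls, only because of their drug arrays, and low signals also shifted up over all probe sets. NOS3, another endothelial KLF2 target, named here after its values were seen, went the other way: its log2 differences were -0.57 ± 0.32 with imatinib (limma, adjusted p = 0.177) and -1.19 ± 0.32 with nilotinib (adjusted p = 0.00399), the latter called lower in 23 of 24 alternatives and lost when the 4 arrays of high actin ratio were left out (-0.52, adjusted p = 0.0809, from a range of 1.16e-04 to 0.0809). The THBD call with imatinib was lost with quantile normalization (0.62), median centring (0.66) and cyclic loess (0.64). The list does not separate genes that a KLF protein activates from those that one represses, so no KLF activity is read from the counts. These counts, like all list counts here, carry no test of the list.

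**Figure D4:**
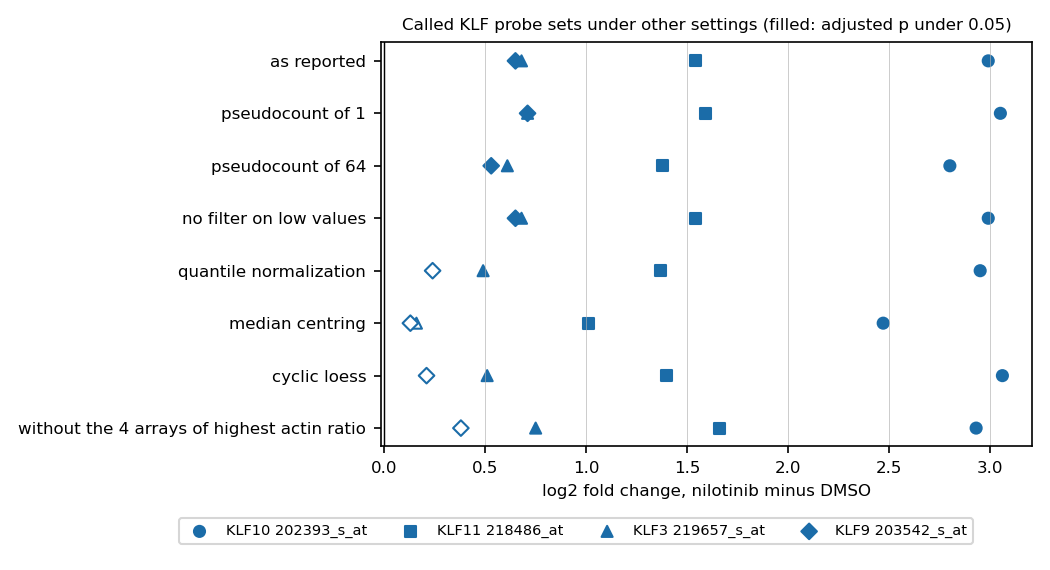
Nilotinib minus DMSO log2 difference of KLF10, KLF11, KLF3 and KLF9 203542_s_at under 8 settings of scaling, pseudocount, filter and arrays, with filled symbols at adjusted p under 0.05 in limma. KLF10 and KLF11 are filled throughout, KLF3 is open with median centring at 0.16, and KLF9 203542_s_at is open under several settings.

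The genes most like each called KLF gene were ranked among 8020 by the root mean square difference over the 12 arrays after subtracting the DMSO mean of each. For KLF10 they were ALOX5 (0.14), ABAT (0.27) and SLC25A37 (0.31), where the median over all genes was 2.27. For KLF11 they were DOP1A (0.09), SERPINF1 (0.13) and TMOD1 (0.14), with a median of 1.08. For KLF3 they were ITPR2 (0.15), ZNF529 (0.15) and ZNF292 (0.16), with a median of 0.56. The measure uses the same arrays as the tests and describes likeness of level only.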

How the data were processed

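The 12 arrays of total RNA from K562 cells were assigned to 3 groups of 4 by their labels, and 0 columns were left unmapped. The submitters' processing notes name MAS5, with no version given, and the values the authors deposited are linear intensity signals. Each array had the same trimmed mean, so the arrays had been scaled before deposit, and no further scaling was done. The shift of dim probe sets between groups was left in the values, its cause not being tested, and the number of arrays limits the precision.

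Probe sets were named through the platform annotation, with symbols updated by gene identifier: 19064 named 1 gene, 1043 several and 2108 none, and 62 were controls. Values were taken as log2(signal + 16) and filtered at the 40th percentile of the mean. All 12 arrays were fitted with 1 mean per group in limma 3.58.1 (R 4.3.3) with a variance trend and 9 residual degrees of freedom. The Benjamini-Hochberg adjustment ran over 11696 probe sets in each comparison. Gene lists are represented by the probe set of highest mean per gene. Named genes were every KLF probe set, up to 4 called genes per list with the largest change, and the 3 genes most alike to each called KLF gene. The KLF genes and the lists were chosen with earlier results of these data known. Detection calls were not used here. Alternatives in pseudocount, filter, scaling, moderation, weights and arrays were run. Promoter windows came from RefSeq tables of GRCh38.p14. Positions of probe sets were not used here, because no build is named for the array.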

Additional observations from a re-analysis of the deposited data

Results flagged for a closer look

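A single array stood apart within its group in 2 of the 48 probe set and group combinations checked, where chance alone gives about 1 in 20. For KLF10 202393_s_at, nilotinib replicate 1 had a signal of 2754, while the other nilotinib arrays lay between 2188 and 2268. Without that array KLF10 was still called higher with nilotinib. For KLF13 219878_s_at, below the filter on low values, nilotinib replicate 3 had a signal of 149, while the other nilotinib arrays lay between 24.4 and 30.5. The highest DMSO array of KLF13 had 21.6. What set these arrays apart was not tested.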

How the results depend on the processing

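No paired analysis was possible because the groups compared share no replicate numbers. The KLF10 and KLF11 calls against DMSO held in all 25 alternatives. Leaving out each array in turn gave 2 to 3 KLF probe sets called with imatinib, 3 to 5 with nilotinib and 0 each time between the drugs (limma), and 3619 to 4398, 5854 to 6420 and 798 to 1254 over all probe sets. The count of all probe sets called between the drugs was 1337, and it was 3541 with median centring, 798 without imatinib replicate 6 and 516 without the 4 arrays of highest actin ratio, the cause not being tested. With nilotinib against DMSO, KLF5 209212_s_at turned to -0.02 with quantile normalization and -0.03 with cyclic loess, KLF9 203543_s_at to -0.19, -0.42 and -0.21 with quantile normalization, median centring and cyclic loess, and KLF6 208961_s_at to 0.10 without the 4 arrays of highest actin ratio. Median centring also turned KLF9 203542_s_at with imatinib (-0.01) and SP2 (-0.08), WWP1 (-0.02) and NR3C1 (-0.16) with nilotinib. Between the drugs, KLF5 turned to -0.06, -0.01 and -0.04 and KLF6 to -0.06, -0.09 and -0.01 with quantile normalization, median centring and cyclic loess, KLF6 to -0.06 without imatinib replicate 6 (range -0.06 to 0.43 on leaving out each array), and, with median centring, KLF9 203543_s_at to -0.01 and KLF10 to -0.08. None of these turned values was called, and the cause was not tested. The dim probe sets of KLF4, KLF7 and KLF13 limit what can be said of these genes, since low signals also shifted up over all probe sets. KLF2 went the other way, at -1.09 and -0.68, from a DMSO mean of 123. What can be said of KLF2 is limited by the spread of its drug arrays, 27 to 107 with imatinib and 34 to 145 with nilotinib.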

Other observations

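The array also holds probe sets for transcripts that neighbor KLF genes, looked at after their values were seen. KLF9-DT, a transcript divergent from KLF9, was higher with nilotinib on 216489_at: signals lay between 45.0 and 84.3 in the DMSO group, 64.1 and 138 under imatinib and 116 and 197 under nilotinib, and all nilotinib arrays lay above all DMSO arrays. Its log2 differences were 1.10 ± 0.30 (SE; limma, adjusted p = 0.00505) with nilotinib and 0.42 ± 0.30 (adjusted p = 0.306) with imatinib. The DMSO mean of KLF9-DT was 68.9, below the filter signal of 80.6, so KLF9-DT passed the filter only through its drug arrays. The nilotinib call of KLF9-DT was kept in 21 of 24 alternatives and lost with quantile normalization (0.53), median centring (0.58) and cyclic loess (0.52). KLF3-AS1, antisense to KLF3, lay below the filter on 219871_at, with signals between 3.25 and 53.0 in the DMSO group, 36.5 and 155 under imatinib and 113 and 139 under nilotinib. Its log2 differences were 1.39 and 1.95, with adjusted p = 0.0276 and 0.00176 in limma when the filter was dropped.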
